A study of Mus musculus with 8 samples.

Results

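LSD1, the histone demethylase encoded by *Kdm1a*, was examined together with the genes of its CoREST complex in LSD1-deficient CD8+ tumor-infiltrating lymphocytes (TILs). The 10 genes were taken by symbol from the 55335 genes of the deposited count table, and comprised *Kdm1a*, its paralog *Kdm1b*, the scaffolds *Rcor1*, *Rcor2* and *Rcor3*, the deacetylases *Hdac1* and *Hdac2*, and *Phf21a*, *Hmg20b* and *Gse1*. RNA was sequenced from CD8+CD44+PD-1+ TILs sorted out of MC38 tumors, a colon carcinoma line of mouse origin, implanted subcutaneously in C57BL/6 mice aged 6 to 10 weeks. The 4 WT samples came from Lsd1f/f littermates, which carry the floxed allele without Cre, and each combined cells of 2 mice. The 4 KO samples came from Cd4-Cre+Lsd1f/f mice, 1 mouse each, in which the *Cd4* promoter drives Cre in developing T cells, so that the deletion reaches CD4+ as well as CD8+ T cells and precedes tumor growth. Tumors were taken on day 18 according to the sample protocol, whereas the text of the series gives 14 days, and 10000 to 20000 cells were sorted per sample. WT samples are numbered S1 to S4 and KO samples S5 to S8.

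LSD1 removes mono- and dimethyl marks from lysine 4 of histone H3, a mark of active promoters and enhancers, and thereby acts mostly as a corepressor. It does so within CoREST, in which an RCOR scaffold holds LSD1 to HDAC1 or HDAC2, so that deacetylation and demethylation of a nucleosome are coupled. PHF21A reads the unmethylated lysine, HMG20B is a DNA-binding HMG-box subunit, and GSE1 is a further component recovered with LSD1. KDM1B (LSD2) carries out the same reaction without CoREST.

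Total counts ranged from 11657807 to 30295406 per sample, and 3 counts corresponded to 0.106 to 0.25 CPM (counts relative to library size, TMM-normalized), a floor that covers counting error only. Of 15378 genes tested with edgeR's quasi-likelihood test, 447 were called higher and 306 lower in KO, a call requiring an adjusted p under 0.01 together with a change of more than 1.5-fold. Markers of the labelled CD8+ T cells were present, among them *Cd3e* (393 ± 30.2 CPM in WT, 328 ± 29.1 in KO; SD, n = 4) and *Cd8a* (1340 ± 93.3 and 1109 ± 107 CPM). Of 10 such markers, *Cd44* and *Cd2* were called higher in KO and none lower, while *Cd8b1* was lower at an adjusted p of 0.0158 (log2 fold change -0.39, SE 0.10) without reaching the fold threshold. Of 13 myeloid markers tested, 11 were called lower in KO and none higher; the list summed to 301 to 849 CPM in WT and 59.3 to 101 CPM in KO, and none of its 14 genes was at 0 throughout. Of 4 CD4 T cell markers, 2 were called higher in KO; they summed to 40.1 to 57.0 CPM in WT and 121 to 155 CPM in KO, of which *Zbtb7b* made up 44.6 ± 6.85 and 102 ± 6.66 CPM (SD, n = 4) and *Cd4* itself 4.54 ± 2.07 and 14.3 ± 8.66 CPM. The part of these other cells in the results below was not tested, apart from a fit with a myeloid covariate. That fit left 12 genes called, all higher in KO and none lower. Its values were examined only for the 10 genes and for 3 cofactor genes described below. They are given where they change a direction or side of a threshold. For all other genes named below, no covariate value is given, so their results are not shown to hold in that fit. Since WT samples were pools of 2 mice and KO samples single mice, pooling and genotype cannot be told apart.

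All 10 genes passed the filter on low counts, and 1 of them, *Gse1*, was called, against 4.9% of all genes tested. At an adjusted p under 0.05 without a fold threshold, 3 of 10 passed (*Kdm1a* lower, *Gse1* and *Phf21a* higher), against 11.3% of all genes. The same 3 were the genes whose WT and KO samples did not overlap, which held for 17.3% of all genes (8.99% with KO higher and 8.28% with KO lower). Without adjustment, 4 of the 10 had a p under 0.05, as did 24.5% of all genes. The median log2 fold change of the 10 genes was 0.10, beside -0.01 over all genes, with 5 above and 5 below 0. The transcripts of the 10 genes did not move in a common direction. The targeted gene was lower, *Gse1* and *Phf21a* were higher, and the other 7 did not pass.

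**Figure D1:**
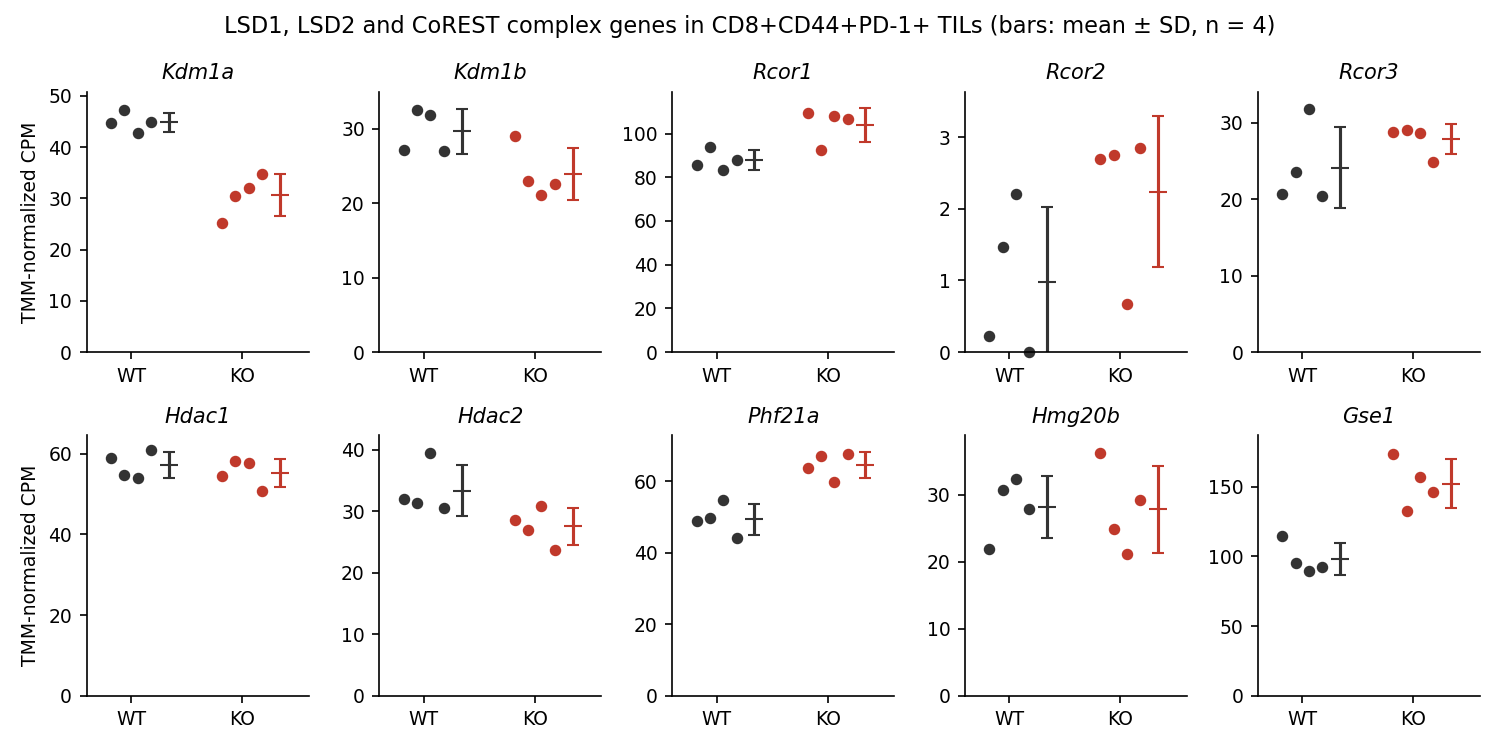
TMM-normalized CPM of the 10 genes in each WT (black) and KO (red) sample, with mean ± SD beside the points (n = 4; where the SD exceeds the mean the bar is cut at 0). *Kdm1a* was lower in all 4 KO samples, *Phf21a* and *Gse1* were higher in all 4, and the groups of the other 7 genes overlapped.

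*Kdm1a* (ENSMUSG00000036940.15; minus strand of GRCm38 chromosome 4, 136550540 to 136602723), the targeted gene, was at 44.6, 47.2, 42.7 and 44.9 CPM in S1 to S4. In the KO samples S5 to S8 it was at 25.2, 30.5, 32.0 and 34.8 CPM. All KO samples lay below all WT samples, S5 lowest, and the KO samples were more spread (coefficient of variation 13.1%) than the WT samples (4.17%). Since WT samples were pools and KO samples single mice, this difference in spread cannot be separated from pooling. The KO mean was 68.3% of the WT mean, a log2 fold change of -0.55 (SE 0.14, 95% interval -0.84 to -0.25, edgeR adjusted p = 0.0163). An exact two-sided permutation test over the samples gave p = 0.0286, the smallest that 4 against 4 samples allow. *Kdm1a* therefore passed the adjusted p of 0.05 but neither the fold change of 1.5 nor the p of 0.01 that a call required. Counts cover the whole gene and no counts per exon were used here, so transcripts that lack only the floxed exons are counted like intact ones. In bulk samples, fewer cells carrying intact transcripts and less RNA per cell cannot be told apart. The exons of *Kdm1a* share no base with those of *Luzp1*, whose span overlaps that of *Kdm1a* by 4241 bases on the opposite strand and which was higher in KO (log2 fold change 0.79, SE 0.14, adjusted p = 0.00156).

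With the mean log2 CPM of the myeloid markers as a covariate, *Kdm1a* had a log2 fold change of -0.99 and an adjusted p of 0.567. That covariate does not overlap between the groups (4.18 to 5.47 in WT, 1.51 to 2.30 in KO), and it left 12 genes called in all. Without S2 the fold change was -0.52 with an adjusted p of 0.0578, and without each of the other samples in turn the adjusted p stayed under 0.05.

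*Kdm1b* (ENSMUSG00000038080.17, chromosome 13), the paralog, was at 27.1, 32.6, 31.9 and 27.0 CPM in S1 to S4. In S5 to S8 it was at 29.1, 23.0, 21.1 and 22.5 CPM. S6, S7 and S8 lay under every WT sample, and S5, the sample with the least *Kdm1a*, lay within the WT range. The difference did not pass (log2 fold change -0.31, SE 0.16, 95% interval -0.65 to 0.03, adjusted p = 0.254), and the interval holds no increase of *Kdm1b* beyond 1.02-fold; with the myeloid covariate the value was 0.18 (adjusted p = 0.958). Of the exonic bases of *Kdm1b*, 505 (9.19%) also belong to *Dek* on the opposite strand, which had 17271 counts over all samples and a log2 fold change of -0.37 (SE 0.11, adjusted p = 0.0425). Whether reads of such shared bases were counted by strand is not stated in the sources used here. Of 118 genes that lie wholly under opposite-strand exons of a gene with at least 1000 counts, 72 (61.0%) had counts and 46 had none. Their median was 2.5 counts, where the host genes had a median of 449 counts per equal length, so reads in such places were neither discarded throughout nor mostly counted for both genes.

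Among the scaffolds, *Rcor1* (ENSMUSG00000037896.17, chromosome 12) was at 85.8, 94.1, 83.4 and 88.0 CPM in S1 to S4 and at 109, 92.5, 108 and 107 CPM in S5 to S8. The KO samples were above the WT samples except for S6, which lay below S2. The log2 fold change was 0.25 (SE 0.10, 95% interval 0.03 to 0.46, adjusted p = 0.141). RCOR1 is the scaffold through which LSD1 reaches nucleosomes, and the interval held no fall of its transcript beside that of *Kdm1a*. With the myeloid covariate the value was -0.020 (adjusted p = 0.992).

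*Rcor3* (ENSMUSG00000037395.15, chromosome 1), a scaffold with a weaker effect on LSD1 activity, was at 20.6, 23.5, 31.7 and 20.5 CPM in S1 to S4 and at 28.8, 29.1, 28.7 and 24.9 CPM in S5 to S8. WT sample S3 was above every KO sample, and the difference did not pass (log2 fold change 0.21, SE 0.17, 95% interval -0.15 to 0.58, adjusted p = 0.509). *Rcor2* (ENSMUSG00000024968.14, chromosome 19), best known from stem and neural progenitor cells, had 4, 27, 27 and 0 counts in the WT samples and 41, 34, 8 and 81 in the KO samples. These counts correspond to 0 to 2.20 CPM in WT and 0.668 to 2.85 CPM in KO, where the groups overlapped. The interval of the log2 fold change of *Rcor2*, -0.79 to 3.19 around 1.20 (SE 0.94, adjusted p = 0.489), was too wide to place it. Per kilobase of all annotated exons, *Rcor1* made up 88.2% ± 3.75 of the summed level of the 3 scaffolds in WT and 86.9% ± 1.95 in KO (SD, n = 4). This share depends on the length used, since *Rcor3* has 13622 exonic bases but a longest protein-coding transcript of 3791. Per kilobase of the longest protein-coding transcript, *Rcor1*, *Rcor3* and *Rcor2* were at 15.4, 6.35 and 0.346 CPM in WT.

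*Hdac1* (ENSMUSG00000028800.15, chromosome 4), which encodes a deacetylase shared with the NuRD and SIN3 complexes, was at 58.9, 54.8, 54.1 and 61.0 CPM in S1 to S4 and at 54.4, 58.3, 57.8 and 50.7 CPM in S5 to S8. The groups overlapped, with a log2 fold change of -0.05 (SE 0.11, 95% interval -0.29 to 0.19, adjusted p = 0.856). *Hdac2* (ENSMUSG00000019777.16, chromosome 10), its close paralog, was at 31.9, 31.3, 39.5 and 30.5 CPM in S1 to S4 and at 28.6, 26.9, 30.9 and 23.7 CPM in S5 to S8. KO sample S7 lay above WT sample S4, and the difference did not pass (log2 fold change -0.28, SE 0.15, 95% interval -0.60 to 0.05, adjusted p = 0.291; 0.33 with the myeloid covariate, adjusted p = 0.897). WT sample S3, which had the most *Hdac2* and *Rcor3*, also had the highest myeloid score of all samples (5.47); whether these go together was not tested.

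The level of *Hdac1* is less certain than that of the other genes, because a processed pseudogene, *Gm10093* (chr17:78491582-78493025), copies its coding sequence with 9 mismatches over 1444 aligned bases (99.4% identity). Bases 312 to 371 of the coding sequence of *Hdac1*, counted from the A of the start codon, are shown because a short read from them fits both genes almost equally: of the 60 bases 1 differs, printed as a capital in both GENCODE sequences (release M21, 5′ to 3′ on the sense strand).
Hdac1: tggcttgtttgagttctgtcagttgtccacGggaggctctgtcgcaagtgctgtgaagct
Gm10093: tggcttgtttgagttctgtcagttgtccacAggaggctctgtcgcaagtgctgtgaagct
Of 1405 stretches of 42 bases in the coding sequence, the length of the shorter read named in the methods, 1161 (82.6%) were also in *Gm10093*. Over all its transcripts, 37.3% of such stretches of *Hdac1* occurred in genes elsewhere in the genome, against at most 0.503% for each of the other 9 genes once genes that overlap them are set aside, and no stretch was shared between any of the 10. *Gm10093* had 7661 counts over all samples, beside 7106 for *Hdac1*. With the counts of *Gm10093*, *Gm4864* and *AC125456.1* added to *Hdac1*, a sum chosen after seeing the data, its level was 135 ± 17.6 CPM in WT and 122 ± 10.5 CPM in KO (SD, n = 4). The log2 fold change of this sum was -0.15 (SE 0.11, 95% interval -0.38 to 0.09, adjusted p = 0.475), so no difference was detectable either way.

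*Gse1* (ENSMUSG00000031822.20, chromosome 8) was at 115, 95.2, 89.3 and 92.3 CPM in S1 to S4 and at 174, 133, 157 and 146 CPM in S5 to S8. The lowest KO sample, S6, exceeded the highest WT sample, S1. The log2 fold change of 0.64 (SE 0.11, 95% interval 0.40 to 0.88, adjusted p = 0.00131) put *Gse1* 1.56-fold higher in KO, just past the fold threshold. Without S5 it was 0.57 with an adjusted p of 0.00465, which misses the fold threshold, and with the myeloid covariate it was 0.30 with an adjusted p of 0.87. *Gse1* shares 2758 exonic bases (26.6% of its exons) with *Gins2* on the opposite strand, which had 1354 counts against 16253 for *Gse1* and a log2 fold change of -0.61 (SE 0.23, adjusted p = 0.102).

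*Phf21a* (ENSMUSG00000058318.15, chromosome 2), which encodes the reader of unmethylated histone H3, was at 48.9, 49.5, 54.8 and 44.2 CPM in S1 to S4 and at 63.6, 67.1, 59.8 and 67.5 CPM in S5 to S8. The groups did not overlap, and the log2 fold change was 0.39 (SE 0.12, 95% interval 0.14 to 0.63, adjusted p = 0.0423). This value lay near the threshold: the adjusted p stayed under 0.05 in 6 of 17 alternative fits and in 1 of the 8 that left out a sample (without S3, 0.0429), while the log2 fold change was between 0.34 and 0.70 in all 17. The highest, 0.70, came with the myeloid covariate, where the adjusted p was 0.642. *Hmg20b* (ENSMUSG00000020232.17, chromosome 10) was at 21.9, 30.7, 32.3 and 27.9 CPM in S1 to S4 and at 36.2, 24.8, 21.1 and 29.3 CPM in S5 to S8. The KO samples of *Hmg20b* spanned the whole WT range, S5 at the top and S7 at the bottom, and its log2 fold change was -0.01 (SE 0.19, 95% interval -0.41 to 0.38, adjusted p = 0.98; 0.71 with the myeloid covariate, adjusted p = 0.797).

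**Figure D2:**
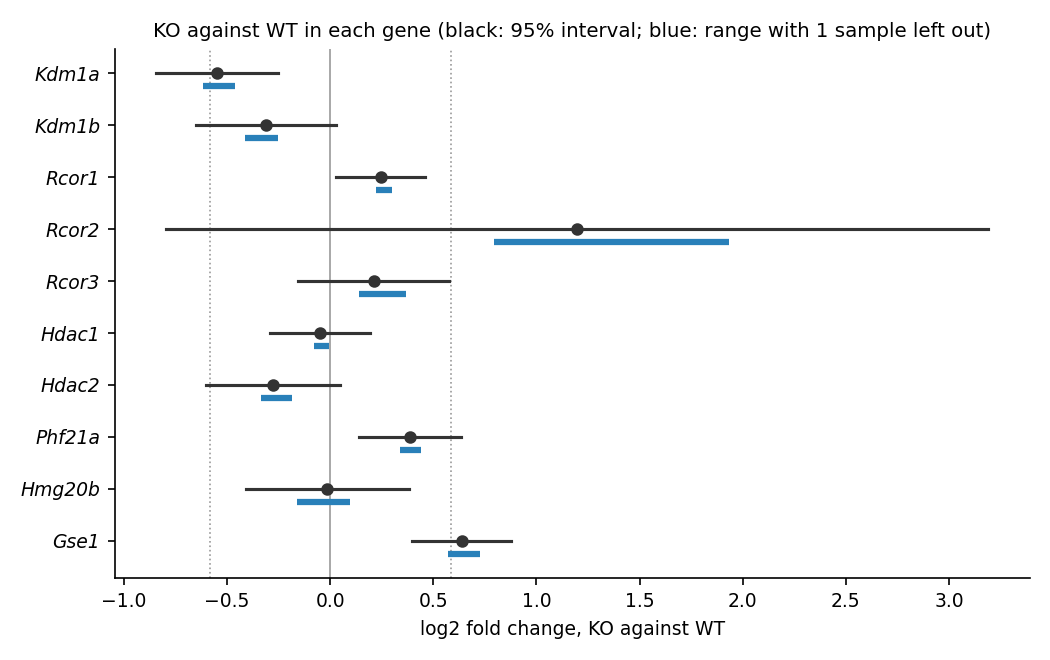
log2 fold change of KO against WT for each gene (black points) with its 95% interval (black lines) and the range of the value when each sample was left out in turn (blue bars); the solid line marks 0 and the dotted lines a fold change of 1.5. The interval of *Kdm1a* lies below 0, those of *Rcor1*, *Phf21a* and *Gse1* lie above 0, and that of *Rcor2* runs from -0.79 to 3.19.

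The promoters of these genes were mostly rich in G and C. RefSeq start sites gave 14 windows of 300 bases (GRCm38.p6, 250 before to 50 after the start) for 9 of the 10 genes, and 13 of the 14 were richer in G and C than the median of 52.7% over 32851 windows. The exception was an alternative *Phf21a* start with 33.3% GC and 1 CpG. The windows of *Hmg20b* overlap almost wholly, so the 14 windows are not 14 separate promoters. Of 3 motifs searched on both strands, the TCF/LEF letters CTTTGAT occurred in 1 window, that of a *Gse1* start on chromosome 8, and in 3.73% of all windows, while the ETS letters CCGGAAGT (3.89% of all) and the GFI1 letters AAATCAC (3.2% of all) occurred in none of the 14. The *Gse1* match is shown because TCF1, a factor of the TCF/LEF family in CD8+ T cells, was a subject of the study. Capitals mark the motif, which begins 27 bases after the start (chr8:120488863-120488915, plus strand).
Gse1: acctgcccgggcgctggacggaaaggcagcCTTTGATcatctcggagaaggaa
A match of letters describes this window and does not show a bound site.

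Levels can be compared between genes only per length, as CPM per kilobase of all annotated exons of a gene (RPKM). In WT, *Hdac1* (16.6 RPKM) and *Rcor1* (15.4) were the most abundant and did not differ beyond their spread. They were followed by *Gse1* (9.46), *Hmg20b* (8.95), *Kdm1a* (8.66) and *Hdac2* (7.44), of which no neighbours were separated, then by *Phf21a* (5.77) and *Kdm1b* (5.40), which overlapped as well. *Rcor3* (1.77) and *Rcor2* (0.309) were each separated from all genes above them. In KO, *Rcor1* (18.3), *Hdac1* (16.1) and *Gse1* (14.7) led, and *Kdm1a* (5.92) was now under *Phf21a* (7.53) and *Hdac2* (6.15).

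The order within WT depends on the length used. Per kilobase of the longest protein-coding transcript, an alternative chosen after seeing the data, *Hdac1* (28.1 CPM per kilobase) still led and *Rcor2* (0.346) was still last. *Hmg20b* (17.4) then came before *Rcor1* (15.4), *Kdm1a* (14.8) before *Gse1* (13.7), and *Rcor3* (6.35) before *Kdm1b* (5.95).

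**Figure D3:**
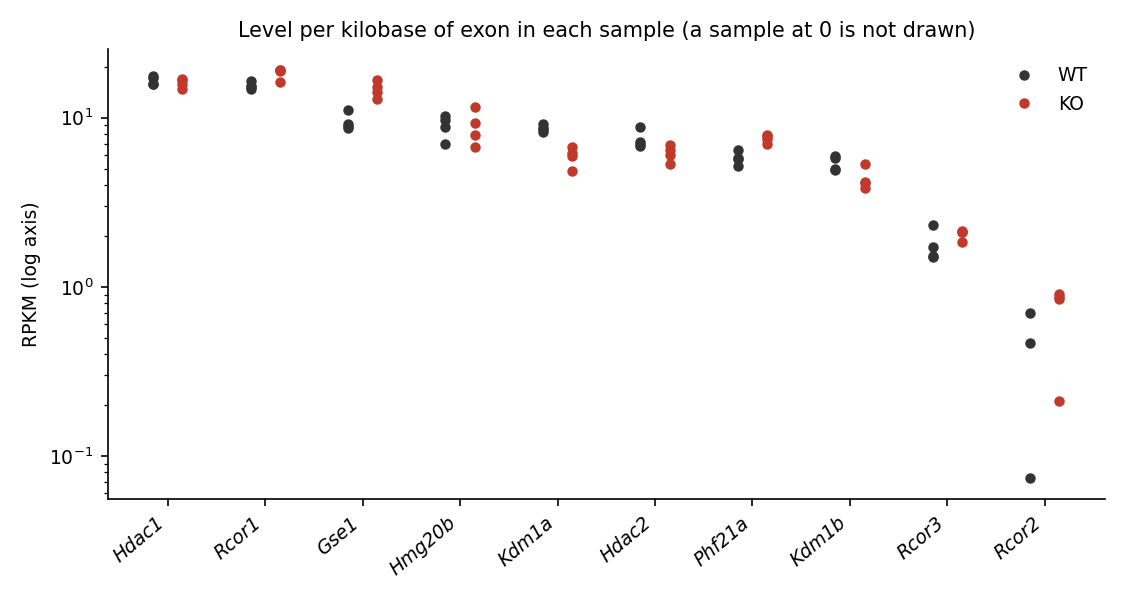
RPKM of the 10 genes in each WT (black) and KO (red) sample on a log axis, ordered by the WT mean; the WT sample with 0 counts of *Rcor2* is not drawn. *Hdac1* and *Rcor1* are at the top and *Rcor3* and *Rcor2* are separated from the rest at the bottom.

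Ratios of 2 genes within a sample do not depend on how libraries were scaled, and 4 such ratios were compared. The log2 ratio of *Kdm1a* to *Rcor1* counts was -0.94, -0.99, -0.97 and -0.97 in the WT samples, against -2.11, -1.60, -1.75 and -1.62 in the KO samples from S5 on. The WT samples, which were pools, hardly varied in this ratio (-0.97 ± 0.02, SD, n = 4). All KO samples, from single mice, were lower (-1.77 ± 0.24), and S5 was the lowest. Per kilobase of all annotated exons, the ratio of *Kdm1a* to *Rcor1* was 0.561 in WT and 0.325 in KO. Its size depends on the length used and does not count transcripts. Per kilobase of the longest protein-coding transcript, *Kdm1a* was at 14.8 and *Rcor1* at 15.4 CPM in WT. In KO these levels were 10.1 and 18.3. The difference of -0.80 in the log2 ratio gave p = 0.0286 in the exact two-sided permutation test. That is 0.114 after Benjamini-Hochberg adjustment over the 4 ratios. With 4 ratios, a single one at the smallest possible p cannot pass that adjustment.

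The enzyme and its paralog showed no such separation. The log2 ratio of *Kdm1a* to *Kdm1b* was 0.60 ± 0.15 in WT and 0.36 ± 0.39 in KO (SD, n = 4; exact permutation p = 0.286, adjusted 0.381). Sample S5, at -0.21, was the only one in which *Kdm1b* had more counts than *Kdm1a*, and without it the difference of the groups shrank from -0.24 to -0.06. Per kilobase of all annotated exons, *Kdm1a* made up 61.7% ± 2.48 of the summed level of both genes in WT and 57.6% ± 6.62 in KO. This share too depends on the length used. Per kilobase of the longest protein-coding transcript, *Kdm1a* and *Kdm1b* were at 14.8 and 5.95 CPM in WT and at 10.1 and 4.80 in KO. The log2 ratio of *Hdac1* to *Hdac2* was 0.79 ± 0.23 in WT and 1.01 ± 0.11 in KO (exact permutation p = 0.114, adjusted 0.229). With the 3 pseudogenes added to *Hdac1*, the difference shrank from 0.22 to 0.13 (exact permutation p = 0.457). The log2 ratio of *Rcor1* to *Rcor3* was 1.89 ± 0.33 in WT and 1.90 ± 0.18 in KO (exact permutation p = 0.971).

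**Figure D4:**
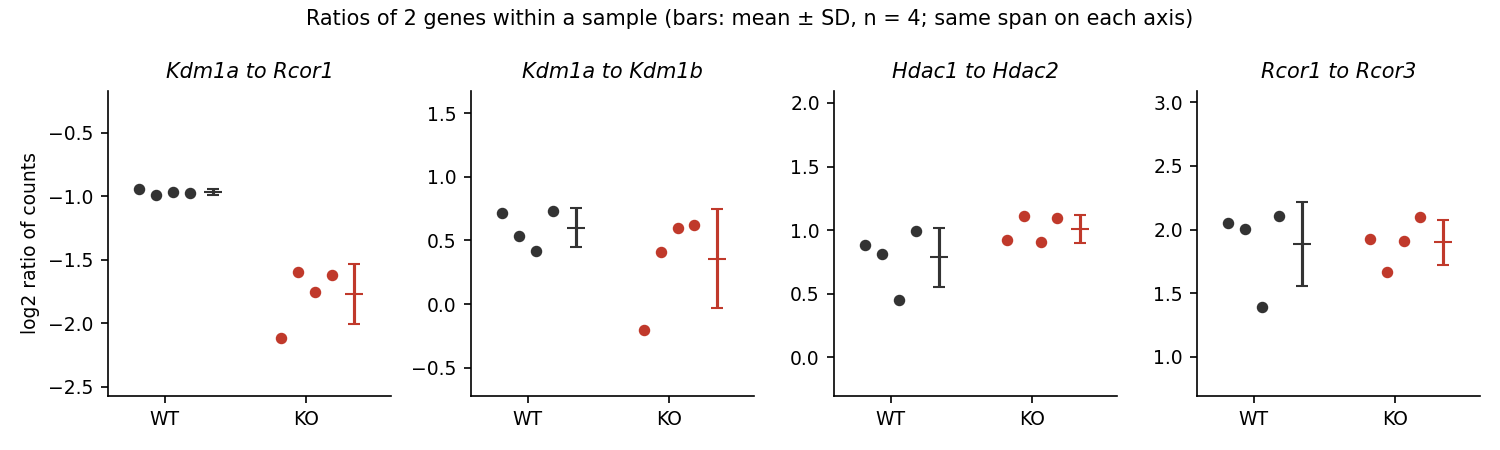
log2 ratio of counts of 2 genes in each WT (black) and KO (red) sample, with mean ± SD (n = 4); each axis has the same span. The ratio of *Kdm1a* to *Rcor1* is separated between the groups (-0.97 ± 0.02 and -1.77 ± 0.24), and the other 3 ratios overlap.

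Further proteins join LSD1/CoREST on chromatin, among them the REST repressor, the CtBP corepressors, ZEB factors and other zinc finger proteins. Of 11 such cofactor genes, all tested, 2 were called higher in KO and none lower (4.9% of all genes were called), and 3 passed an adjusted p under 0.05, all higher (11.3% of all genes). Their median log2 fold change was 0.14, beside -0.01 over all genes. Those 3 were *Zfp516*, *Rreb1* and *Zfp217*. The list, like those below, was chosen with earlier results of these data known, so its shares do not test cofactors as a set. The better known partners *Rest*, *Ctbp1*, *Ctbp2*, *Zeb1* and *Zeb2* had log2 fold changes between -0.19 and 0.14, with adjusted p of 0.545 to 0.901.

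*Zfp516*, whose protein has been found with CtBP, LSD1 and CoREST and also acts as a transcriptional activator in brown fat, was at 10.1, 10.3, 18.4 and 9.65 CPM in S1 to S4. In S5 to S8 *Zfp516* was at 69.3, 67.2, 56.0 and 67.1 CPM. Each KO sample was above 3 times the highest WT sample, and the log2 fold change was 2.43 (SE 0.20, 95% interval 2.01 to 2.85, adjusted p = 4.77e-07), or 5.38-fold. *Zfp516* was called in all 17 alternative fits, that with the myeloid covariate included.

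*Rreb1*, a zinc finger factor downstream of Ras that has been recovered with CtBP, was at 75.0, 63.9, 97.8 and 46.1 CPM in S1 to S4 and at 167, 144, 137 and 139 CPM in S5 to S8. The groups did not overlap although the WT samples of *Rreb1* were widely spread, and the log2 fold change was 1.06 (SE 0.17, 95% interval 0.70 to 1.41, adjusted p = 0.000507). *Rreb1* was called in 16 of the 17 alternative fits and not with the myeloid covariate, where its log2 fold change was 2.16 with an adjusted p of 0.0905. *Zfp217*, which binds LSD1/CoREST, was at 93.9 to 117 CPM in WT and 141 to 181 CPM in KO, without overlap. Its log2 fold change of 0.56 (SE 0.11, adjusted p = 0.00283) lay under the fold threshold, and it was called in 4 of the 17 alternatives; with the myeloid covariate its adjusted p was 0.721.

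**Figure D5:**
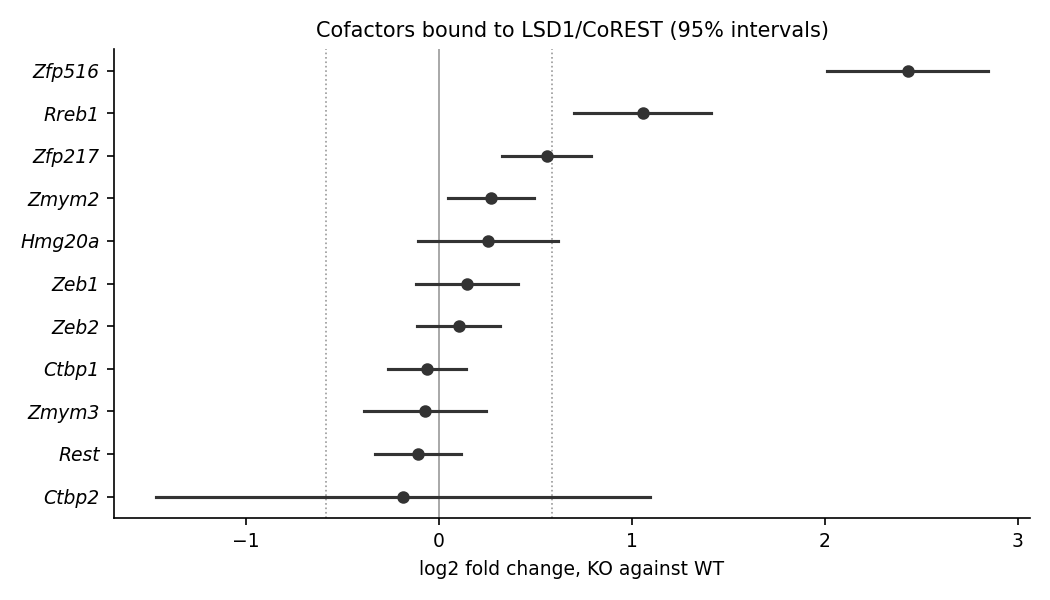
log2 fold change of KO against WT (points) with 95% intervals (lines) for 11 genes of proteins that join LSD1/CoREST; the solid line marks 0 and the dotted lines a fold change of 1.5. *Zfp516* (2.43) and *Rreb1* (1.06) lie past the threshold, *Zfp217* (0.56) lies just within it, and of the other 8 genes only *Zmym2* has an interval that excludes 0.

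HDAC1 and HDAC2 also serve other corepressors. None of 22 genes of the NuRD and SIN3 complexes was called, and 1 passed an adjusted p under 0.05, the NuRD remodeler *Chd3* (198 ± 19.4 CPM in WT, 249 ± 9.97 in KO; log2 fold change 0.32, SE 0.10, adjusted p = 0.0379). The median of these 22 genes was -0.05. Of 6 genes of the MiDAC and MIER deacetylase complexes none was called and 1 passed an adjusted p under 0.05, *Mier1*, which encodes a scaffold for HDAC1 and HDAC2 (173 ± 15.0 and 215 ± 12.0 CPM; log2 fold change 0.31, SE 0.10, adjusted p = 0.0489). Their median was 0.11. All these shares lay near or below the 4.9% and 11.3% of all genes, except that 1 of 6 is the smallest share above 0 that 6 genes allow.

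Of 16 genes for other enzymes and enzyme complexes that write or erase methyl groups on the same histone lysine, none was called. *Kmt2d*, which encodes a methyltransferase of enhancers, was the 1 gene of the 16 to pass an adjusted p under 0.05. It was at 1072 ± 200 CPM in WT and 1547 ± 63.5 CPM in KO (SD, n = 4, log2 fold change 0.53, SE 0.11, adjusted p = 0.0047). Over all genes, 4.9% were called and 11.3% passed an adjusted p under 0.05. The median of the 16 was 0.01. The demethylase genes *Kdm5a*, *Kdm5b* and *Kdm5c*, which act on the trimethyl mark that LSD1 cannot remove, had log2 fold changes of 0.09, 0.22 and 0.01, none with an adjusted p under 0.235.

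The 5 genes whose profile over the 8 samples was nearest to that of *Kdm1a*, by the root mean square difference of centred log2 CPM among 10932 genes above a mean log2 CPM of 2, were *Npc2* (0.058), *Clic4* (0.059), *H2-T22* (0.072), *Rmdn3* (0.077) and *Timm13* (0.088). The other 9 genes examined here were left out of this search by its rule. The log2 fold changes of the 5 nearest genes lay between -0.64 (*Clic4*, SE 0.12, adjusted p = 0.00169) and -0.43 (*H2-T22*, SE 0.10, adjusted p = 0.0116). This likeness describes 8 samples, which share their groups, and carries no test.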

How the data were processed

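RNA-seq of 8 samples was analysed from 1 table of raw counts per gene. The authors depleted ribosomal RNA, made directional paired-end libraries, aligned the reads to GRCm38 using STAR and obtained counts for GENCODE genes using featureCounts; the deposited counts are neither normalized nor pooled, and the strand setting and the treatment of reads with several matches are not given in the sources used here. The authors' DESeq2 test with GC correction was not used. Columns could be assigned to WT or KO but not to replicate numbers.

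Counts were tested with edgeR 4.0.16 in R 4.3.3 (filterByExpr, TMM, glmQLFit, glmQLFTest), KO against WT, n = 4 each, with Benjamini-Hochberg adjustment over 15378 genes. Calls needed an adjusted p under 0.01 and a change above 1.5-fold. Each standard error is the size of the log2 fold change divided by the root of F. Single values were compared by exact permutation over 70 arrangements of samples, ratios with 0.5 counts added to each gene. GENCODE M21 (GRCm38) gave lengths and overlaps and held 55154 of 55335 gene IDs. The authors used a later release.

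Simulated data of the same size gave back 12.5% to 20.4% of genes changed 1.5-fold, 51.0% to 60.6% changed 2-fold and 74.6% to 83.8% changed 4-fold at an adjusted p under 0.05. Far fewer genes were changed in the simulated data than the 1737 that passed this threshold in the real data. The adjustment was therefore stricter there, and these shares do not give the power of the real comparison. The 10 genes and all lists were chosen with earlier results of these data known. Named genes were these 10, up to 4 genes per list by adjusted p under 0.05, the 5 profiles nearest *Kdm1a*, genes with overlapping exons and markers beside a result. *Luzp1*, the pseudogenes of *Hdac1* and the cofactors and *Kdm5* genes that did not pass were named after their values were seen. B cell, NK cell, neutrophil, stromal and tumor epithelial markers summed to 46.9 to 81.7, 47.5 to 64.0, 0.523 to 6.12, 1.32 to 6.28 and 13.5 to 30.1 CPM in WT and 16.1 to 44.6, 22.9 to 54.8, 0 to 1.37, 0.584 to 3.31 and 21.4 to 32.6 CPM in KO. Alternatives used DESeq2 1.42.0 and mgcv 1.9.3 besides edgeR.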

Additional observations from a re-analysis of the deposited data

Results flagged for a closer look

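Of 28 groups of 4 values tested with Dixon's criterion, 4 held a sample far from the other 3, where chance gives about 1 in 20, or 1.4. KO sample S6 was low for *Rcor1* (log2 CPM 6.53, the others 6.74 to 6.77; gap over range 0.863). KO sample S7 was low for *Rcor2* (log2 CPM -0.34, the others 1.49 to 1.57; 0.959), a gene with 8 counts in that sample. KO sample S8 was low for *Rcor3* (log2 CPM 4.65, the others 4.85 to 4.87; 0.915). WT sample S3 was low for the log2 ratio of *Rcor1* to *Rcor3* (1.39, the others 2.00 to 2.10; 0.856). The 4 cases came from 4 different samples, and no cause was tested.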

How the results depend on the processing

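The comparison was repeated under 17 alternatives, 8 of which left out 1 sample each. *Kdm1a* stayed lower in all 17 (-0.99 to -0.46; -0.62 to -0.46 with a sample left out) and under an adjusted p of 0.05 in 15. At an adjusted p under 0.05 alone, 1737 genes and 3 of the 10 passed; without a filter on low counts 1173 genes were called, since more genes were tested; leaving out a sample gave 546 to 749 genes, 0 (without S5) to 1 of the 10, and 2 to 3 of the 11 cofactors, a count added after seeing the data. The myeloid covariate left 12 genes, 0 of the 10 and 1 cofactor called, and turned *Kdm1b* (0.18), *Rcor1* (-0.020), *Hdac2* (0.33) and *Hmg20b* (0.71); GC offsets turned *Hdac1* (0.015) and *Hmg20b* (0.075). None of these turned values had an adjusted p under 0.05, and the cause was not tested. With a sample left out, *Hmg20b* ranged from -0.16 to 0.10, the *Hdac1* to *Hdac2* ratio from 0.11 to 0.29 (without S4, exact permutation p = 0.0286, the smallest that 3 against 4 samples allow), and the *Rcor1* to *Rcor3* ratio from -0.15 (without S3) and -0.05 (without S8) to 0.090. No paired analysis was possible because the columns carry no replicate numbers. *Rcor2* had 0 to 81 counts per sample and a biological coefficient of variation of 0.835, against 0.112 to 0.193 for the other 9.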
